A study of Mus musculus with 19 samples.

Results

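Ly6C+ inflammatory monocytes from breast cancer bone metastasis were compared with Ly6C+ monocytes from healthy bone marrow, gene by gene, on Affymetrix MoGene 2.0 ST arrays. The members were chosen by the arrays' labels, and they are 9 of the 19 arrays of the series: 4 of monocytes from metastasis and 5 of monocytes from healthy bone. The other arrays hold macrophages and enter only a fit named where it is used. Metastasis was produced with MetBo2, a bone-homing clone selected from Met-1, a mouse mammary cancer line that goes back to a tumour driven by the polyoma middle T oncoprotein. For the metastasis group, 4-week-old female mice received 100000 of these cells by injection into the heart and had no treatment. The tumour arm is therefore a model made with 1 clone of 1 line. For the healthy group the labels give bone marrow of healthy mice, and neither an age nor an injection, so age, injection and tumour cannot be told apart here. The sources used here give no strain, time from injection to collection, sort gate beyond Ly6C+, or batch. Serial numbers in the sample titles run by group, healthy monocytes before metastasis ones, so their order and the group cannot be told apart. What the serial numbers stand for is not said. Whether each array came from a different mouse is not said in the labels, so the p-values reflect only how far these samples spread, which may be technical. Replicate numbers follow the order of the samples and only name the arrays.

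Ly6C+ monocytes, also called classical or inflammatory monocytes, are made in the bone marrow and leave it through the chemokine receptor CCR2. In inflamed tissue and in tumours they give rise to macrophages and to dendritic-like cells, and in bone they share a precursor with osteoclasts. Cytokines such as interleukin 6 and interleukin 1, acting through STAT3, C/EBP and NF-kappaB factors, induce acute-phase proteins in liver and, for some of them, in myeloid cells, while interferon gamma and interleukin 4 drive separate activation programmes.

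Each array holds deposited log2 expression for 20998 gene symbols. The array medians lay between 4.45 and 4.48 in metastasis and between 4.46 and 4.51 in healthy marrow, and pairs of arrays correlated across genes at 0.989 to 0.994. Along the first principal component, with 26.6% of the variance, the groups lay apart, with the metastasis arrays at -5.4, -15.1, -23.5 and -10.4 and the healthy arrays at 14.4, 5.8, 10.3, 14.9 and 9.1. Y-linked transcripts, absent in females, lay between 2.12 and 2.83 for all 4 genes read, the level at which absent transcripts read on this scale. The median SD of a gene was 0.135 within metastasis and 0.140 within healthy marrow. With 4 and 5 arrays, the median standard error of the difference was 0.097, so the number of arrays limits the precision.

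The sorted cells carried the transcripts that define Ly6C-high monocytes in both groups, and with 1 exception these were not called. Ly6c2, which encodes the Ly6C antigen of the sort, averaged 12.38 ± 0.16 in metastasis and 12.27 ± 0.09 in healthy marrow (SD, n = 4 and 5 arrays). Ccr2, the receptor for exit from marrow, averaged 10.18 ± 0.12 in metastasis and 10.07 ± 0.09 in healthy marrow. Itgam (CD11b) averaged 9.85 in metastasis and 9.71 in healthy marrow, Csf1r, the receptor for macrophage colony-stimulating factor, 9.83 and 9.95 in the same order, and Adgre1, a macrophage surface antigen, 7.95 and 7.96. None of these 5 genes passed the test. Of the 16 measured genes in a list of Ly6C-high markers 1 was called, Vcan, which encodes the matrix proteoglycan versican. Vcan read 10.54, 10.60, 11.10 and 10.44 on the metastasis arrays and 9.01, 10.02, 9.34, 9.28 and 9.04 on the healthy arrays. Every metastasis value of Vcan lay above every healthy value, and metastasis replicate 3 was the highest. The difference was 1.33 ± 0.19 on the log2 scale (SE, adjusted p = 0.00580), a fold of 2.52. The median difference of the whole list was 0.11, against -0.01 over all genes, and 13 of the 16 differences were positive. Of the 16 genes, 5 had an unadjusted limma p under 0.05. The list's median level ranged from 10.48 to 10.57 over the metastasis arrays and from 10.17 to 10.34 over the healthy arrays, without overlap.

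Metastasis and healthy monocytes differed in 210 of the 20998 genes (1.00%) at an adjusted p under 0.05 in limma, and the largest were rises of Saa3, Lrg1 and F11r and a fall of Cd209a. Of the 210 genes, 133 (0.633% of those tested) were higher in metastasis and 77 (0.367%) were lower. Over all 20998 genes, 2555 had an unadjusted limma p under 0.05 and 53.34% had a negative difference. These shares are the background for the same counts in the lists. All lists were chosen with earlier results of these data known, so a list's count or median supports nothing by itself. Differences of 2-fold or more were found in 38 of the called genes, 33 of them higher and 5 lower in metastasis; the 5 were Cd209a, Il12rb2, Itgb3, Mtss1 and Cgnl1. The smallest called difference was 1.25-fold, and the median absolute difference among called genes was 0.62 on the log2 scale. The arrays of the groups did not overlap in 1135 genes (5.41%), 621 of them higher and 514 lower in metastasis, and 207 of the 210 called genes were among these. The exceptions were Cd244a, Gstp3 and Ccnq, named here after their values were seen. When each of the 9 arrays was left out in turn (the leave-one-out fits), 85 of the 210 genes kept their call in all 9 fits, 63 of the higher and 22 of the lower. A fit of all 19 arrays (the 19-array fit), in which the macrophage arrays set part of the spread, called 93 of the 210 genes.

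**Figure D1:**
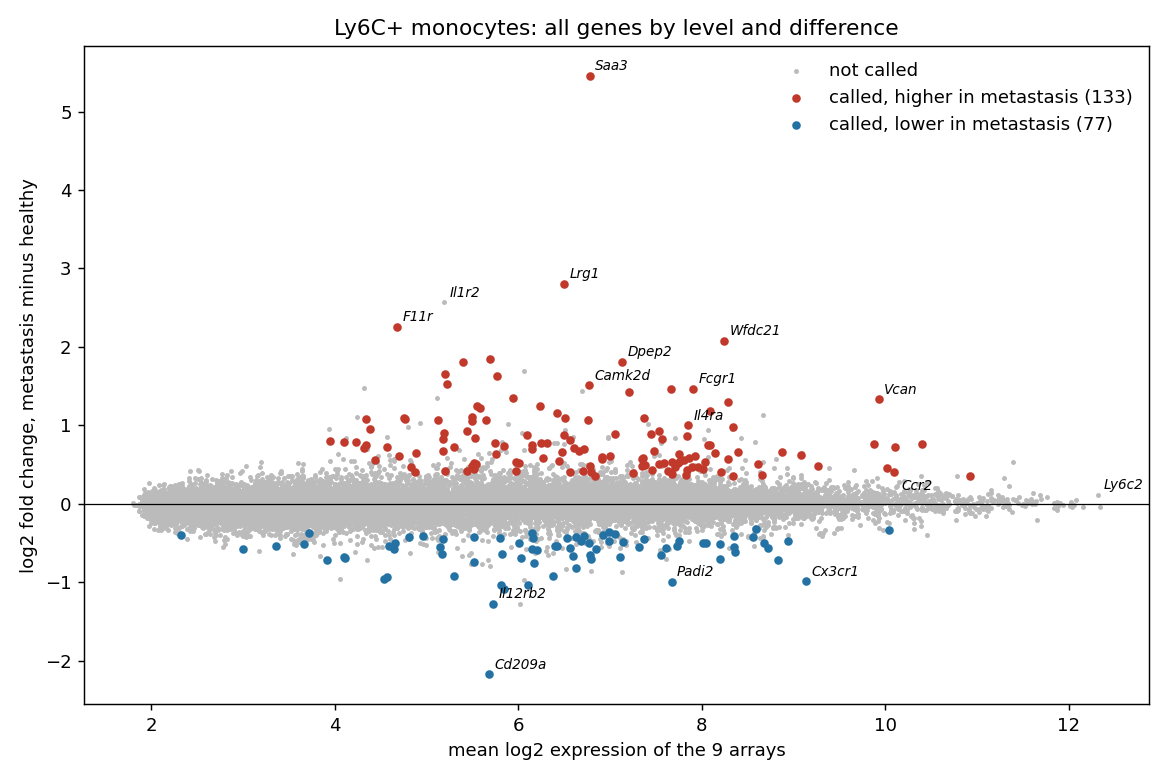
Each point is 1 gene of the 9 monocyte arrays, with its mean log2 expression on the horizontal axis and the log2 fold change, metastasis minus healthy, on the vertical axis. Red points are the 133 genes called higher in metastasis, blue points the 77 called lower and grey points the rest; Saa3 stands at 5.46, far above every other gene, while Ly6c2 and Ccr2 lie close to 0.

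Acute-phase genes and targets of STAT3 held the largest rise of any gene. Saa3, a serum amyloid A that macrophages and other cells outside the liver make, read 8.69, 9.60, 10.72 and 10.24 on the metastasis arrays and 4.41, 5.31, 3.78, 3.84 and 4.45 on the healthy arrays. All 4 metastasis values lay above all 5 healthy values, with the lowest metastasis value, 8.69, well above the highest healthy one, 5.31 on replicate 2. The log2 difference was 5.46 ± 0.37 (SE, adjusted p = 2.87e-05), or 43.9-fold. In a bulk sample, a larger share of cells with a transcript and more RNA in each cell cannot be told apart. Saa1 and Saa2, the liver forms, stayed near the level of absent transcripts, Saa1 at 2.47 ± 0.30 in metastasis and 2.21 ± 0.12 in healthy marrow and Saa2 at 2.34 ± 0.23 and 2.38 ± 0.21.

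Lrg1, which encodes leucine-rich alpha-2-glycoprotein, read 7.77, 7.51, 8.75 and 8.20 in metastasis and 5.10, 5.31, 5.04, 5.56 and 5.25 in healthy marrow. The groups were far apart, and metastasis replicate 3 was again the highest array. The difference was 2.81 ± 0.20 (adjusted p = 3.68e-05), or 6.99-fold. Wfdc21, a secreted protein with a whey acidic protein domain, read 8.82, 8.98, 10.64 and 9.15 in metastasis and 7.41, 6.72, 7.85, 6.92 and 7.68 in healthy marrow, a difference of 2.08 ± 0.34 (adjusted p = 0.0104). The groups did not overlap, and metastasis replicate 3 stood well above its group; with an intensity trend and a robust prior in limma, Wfdc21 had an adjusted p of 0.0735 (0.000306 to 0.0735 over the 6 other settings). Pim1, a kinase gene that STAT factors induce, rose by 0.78 ± 0.09 (adjusted p = 0.000852), with 6.18 in metastasis and 5.40 in healthy marrow. Il4ra, also on the list, is described with the interleukin-4 receptor.

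These 5 genes, Saa3, Lrg1, Wfdc21, Pim1 and Il4ra, were the called members of the 22 on the list, and none was called lower. The list's median was 0.41, against -0.01 over all genes, and 19 of its 22 members had a positive difference. Of the 22, 14 had an unadjusted limma p under 0.05. The list was chosen with earlier results of these data known, so these values support nothing by themselves. Members that did not pass included some with large differences. Il1r2, the decoy receptor for interleukin 1, read 4.48, 7.42, 9.52 and 5.06 in metastasis and 3.40, 4.29, 4.03, 4.25 and 4.27 in healthy marrow. All metastasis values of Il1r2 lay above the healthy ones, but they spread over about 5 log2 units, and the difference of 2.57 ± 0.77 did not pass (adjusted p = 0.169). Lcn2, lipocalin 2, differed by 1.14 ± 0.28 (adjusted p = 0.0906), Socs3, the feedback inhibitor of STAT3, by 0.66 ± 0.15 (adjusted p = 0.0586) and Bcl3 by 0.79 ± 0.21 (adjusted p = 0.110). Lcn2 and Socs3 did not overlap between groups. Lcn2 passed in the 19-array fit (adjusted p = 0.0148; 0.0148 to 0.237 over the 6 other settings), and Socs3 passed in 5 of the 6 other settings (0.0202 to 0.0764). Stat3 itself differed by 0.26 ± 0.08 (adjusted p = 0.171), and Il6ra, the interleukin-6 receptor, by -0.07 ± 0.07 at high levels of 10.19 in metastasis and 10.27 in healthy marrow. Haptoglobin, Hp, averaged 11.48 ± 0.12 in metastasis and 11.15 ± 0.09 in healthy marrow (adjusted p = 0.0891; 0.00316 to 0.208 in the 6 other settings, of which 2 passed).

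**Figure D2:**
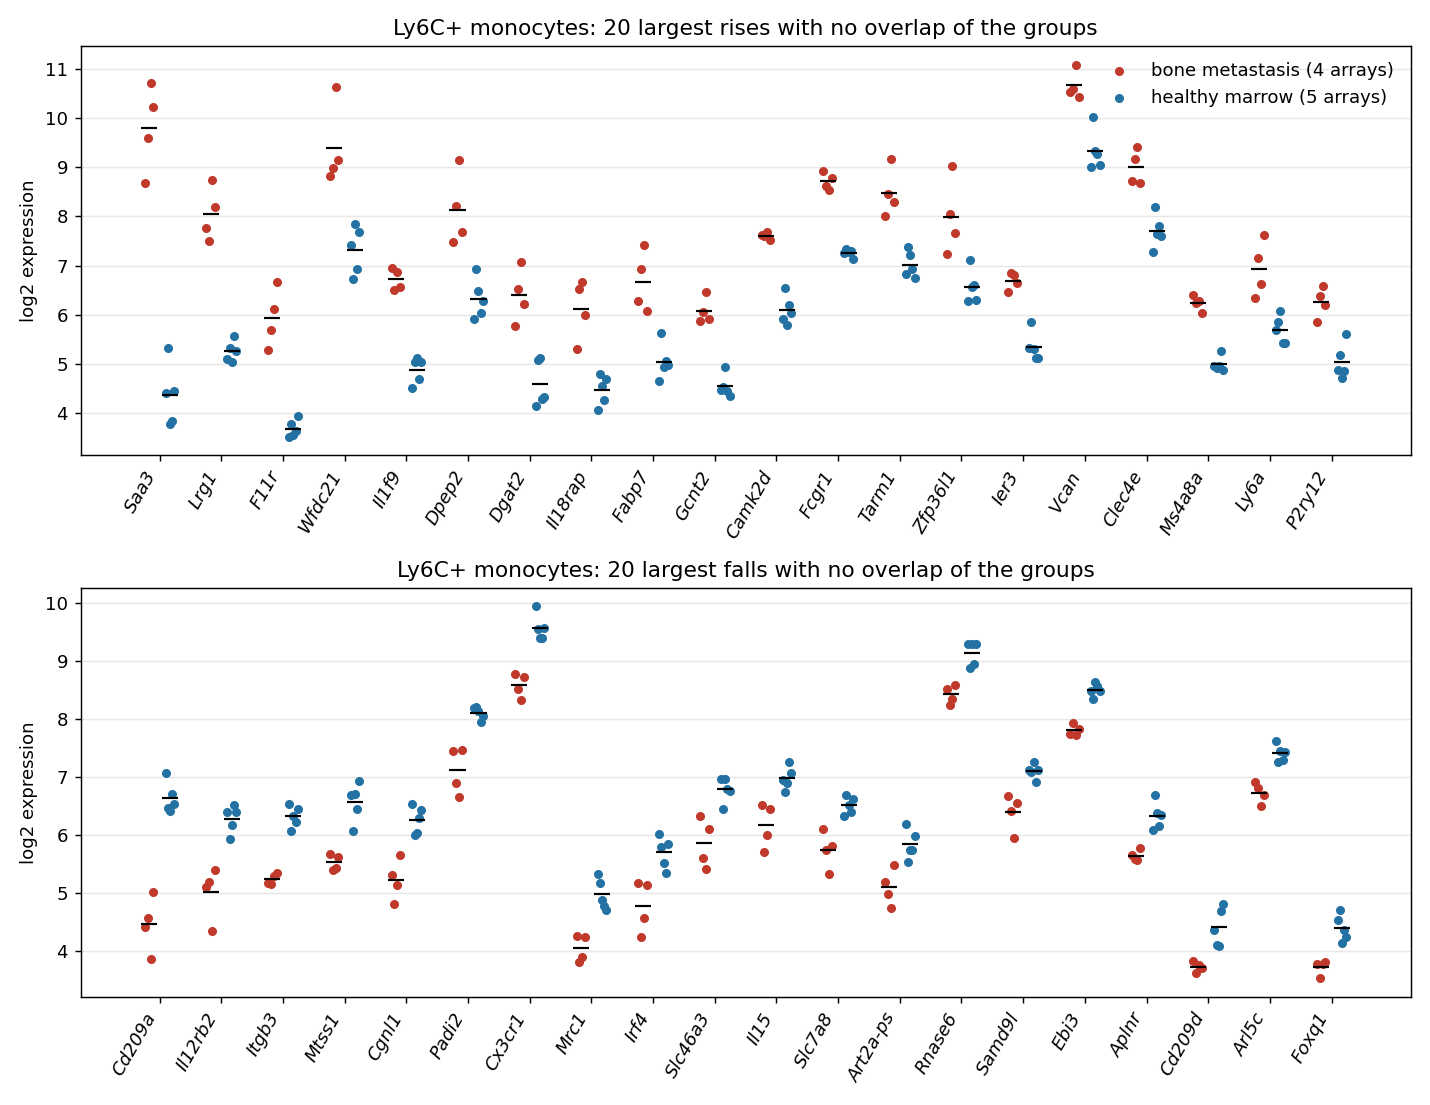
Each point is the log2 expression of 1 gene on 1 array, red for the 4 metastasis arrays and blue for the 5 healthy arrays, and the black bar is the group mean. The upper panel holds the 20 largest rises, from Saa3 to P2ry12, and the lower panel the 20 largest falls, from Cd209a to Foxq1; in each of these genes the groups do not overlap, because the genes were picked so.

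Promoter windows are shown for some of the called genes whose window held a searched motif. They are the leading acute-phase gene Saa3, and genes of Fc receptor, interleukin-1 family, colony-stimulating factor receptor, adapter and interferon-induced function described here. All of the genes shown were called higher. STAT matches also stood in windows of the lower genes Il12rb2, Ltb and Slc46a3, which are not shown. Each window is the 250 bases before the start that the RefSeq promoter table gives the gene on GRCm38.p6 (for Saa3 a start inside the gene's full RefSeq span), written in the direction of the gene, and capitals mark matches on either strand. Saa3 held a C/EBP match and an interferon-stimulated response element (ISRE) match, Fcgr1, Il1f9 and Csf2rb2 a STAT match each, Myd88 a STAT match that overlaps an ISRE match, and Gbp7 both STAT and ISRE matches.
Saa3 (chr7:46715677-46715926, minus strand): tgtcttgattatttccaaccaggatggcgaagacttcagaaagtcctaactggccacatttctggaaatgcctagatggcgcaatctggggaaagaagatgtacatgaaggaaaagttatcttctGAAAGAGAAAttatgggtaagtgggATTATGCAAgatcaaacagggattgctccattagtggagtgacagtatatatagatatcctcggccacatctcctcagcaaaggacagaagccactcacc
Fcgr1 (chr3:96293970-96294219, minus strand): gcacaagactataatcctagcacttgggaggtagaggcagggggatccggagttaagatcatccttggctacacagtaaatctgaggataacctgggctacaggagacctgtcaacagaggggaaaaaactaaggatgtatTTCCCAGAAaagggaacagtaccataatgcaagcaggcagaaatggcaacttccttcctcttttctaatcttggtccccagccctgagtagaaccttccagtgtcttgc
Il1f9 (chr2:24186226-24186475, plus strand): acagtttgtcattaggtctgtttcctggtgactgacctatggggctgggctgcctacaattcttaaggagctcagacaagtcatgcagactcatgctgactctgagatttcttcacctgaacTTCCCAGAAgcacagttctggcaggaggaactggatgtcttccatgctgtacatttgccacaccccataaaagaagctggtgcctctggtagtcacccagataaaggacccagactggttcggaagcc
Csf2rb2 (chr15:78305722-78305971, minus strand): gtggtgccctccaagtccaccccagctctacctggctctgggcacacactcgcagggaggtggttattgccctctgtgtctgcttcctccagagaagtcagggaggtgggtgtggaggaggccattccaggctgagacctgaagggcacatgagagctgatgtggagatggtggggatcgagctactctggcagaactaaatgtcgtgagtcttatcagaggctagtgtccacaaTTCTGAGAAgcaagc
Myd88 (chr9:119340019-119340268, minus strand): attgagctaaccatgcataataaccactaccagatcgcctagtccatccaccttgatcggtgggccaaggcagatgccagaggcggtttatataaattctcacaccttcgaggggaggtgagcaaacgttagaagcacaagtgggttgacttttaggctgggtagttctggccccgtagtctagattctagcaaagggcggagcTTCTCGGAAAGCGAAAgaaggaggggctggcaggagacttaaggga
Gbp7 (chr3:142530086-142530335, plus strand): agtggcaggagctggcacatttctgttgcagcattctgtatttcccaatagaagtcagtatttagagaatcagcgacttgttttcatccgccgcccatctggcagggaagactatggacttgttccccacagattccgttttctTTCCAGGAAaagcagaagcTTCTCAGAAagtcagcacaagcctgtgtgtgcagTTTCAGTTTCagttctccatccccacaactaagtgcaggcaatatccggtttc

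The motifs were searched as TTCNNNGAA (STAT), TTGCNNAAT (C/EBP), GGGA and CC with any 4 bases between them (NF-kappaB), GAAA and GAAA with any 2 bases between them (ISRE) and GAGGAAGT (PU.1). Windows were found for 107 of the 133 higher genes, for 62 of the 77 lower genes and for 16451 of all 20998. A STAT match stood in 9.35% of the higher genes with a window, in 8.06% of the lower genes and in 7.70% of all genes. For C/EBP the shares were 4.67%, 1.61% and 2.32% in the same order, for ISRE 8.41%, 4.84% and 3.43%, for PU.1 6.54%, 4.84% and 2.68%, and for NF-kappaB 25.23%, 30.65% and 22.76%. These shares describe letters in short windows, with no test, and a match is not a binding site.

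Among receptors for cytokines, both chains that bind interleukin 4 or interleukin 13 together were higher in metastasis. Il4ra, the interleukin-4 receptor alpha chain, read 8.17, 8.51, 8.48 and 8.47 in metastasis and 7.35, 7.33, 7.53, 7.53 and 7.30 in healthy marrow. The groups did not overlap, and metastasis replicate 1 was the lowest of its group. The difference was 1.00 ± 0.09 (adjusted p = 0.000177), or 2.00-fold. Il13ra1, its partner chain in the type II receptor, read 8.41, 8.54, 8.87 and 8.22 in metastasis and 7.85, 8.14, 7.69, 7.91 and 7.70 in healthy marrow, a difference of 0.65 ± 0.13 (adjusted p = 0.0356). Its call was lost in 7 of the 9 leave-one-out fits (adjusted p 0.0255 to 0.113) and in the 19-array fit (0.185; 0.0118 to 0.185 over the 6 other settings). Of the 21 measured genes of the interleukin-4 list, 2 were called higher and 2 lower, and the median was -0.04. The lower genes were Mrc1, the mannose receptor, and Irf4, a transcription factor of alternative activation and of dendritic cells. Mrc1 averaged 4.05 ± 0.23 in metastasis and 4.98 ± 0.27 in healthy marrow, a fall of 0.93 ± 0.14 (adjusted p = 0.00789), and missed the threshold in the 19-array fit (0.0571; 0.00148 to 0.0571 over the 6 other settings). Irf4 averaged 4.78 ± 0.45 in metastasis and 5.71 ± 0.27 in healthy marrow, with adjusted p = 0.0392, and lost its call in 6 leave-one-out fits (adjusted p 0.0280 to 0.123). Chil3, a chitinase-like product of alternative activation, averaged 11.68 ± 0.30 in metastasis and 11.15 ± 0.31 in healthy marrow and did not pass (adjusted p = 0.186).

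Csf2rb2, a mouse beta chain of the interleukin-3 receptor, was the only called gene among 17 growth factor and cytokine receptors. It read 8.01, 7.83, 8.25 and 8.03 in metastasis and 7.33, 7.31, 7.12, 7.14 and 7.11 in healthy marrow, without overlap, a difference of 0.83 ± 0.09 (adjusted p = 0.000962). Csf2rb, the near-identical common beta chain, averaged 7.03 ± 0.25 in metastasis and 6.71 ± 0.09 in healthy marrow (adjusted p = 0.246), and the arrays may not part the copies fully. No JAK, STAT or SOCS gene of the 19 measured was called, and 3 had an unadjusted p under 0.05.

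The interleukin-1 and interleukin-18 family held 3 called genes of 19, all higher, with a list median of 0.05. Il1f9, which encodes interleukin-36 gamma, a cytokine of this family, read 6.95, 6.49, 6.87 and 6.56 in metastasis and 4.5, 5.03, 5.11, 4.69 and 5.03 in healthy marrow. All metastasis arrays lay more than 1 log2 unit above the highest healthy array. The difference was 1.85 ± 0.14 (adjusted p = 4.6e-05), or 3.59-fold. Il18rap, the accessory chain that the interleukin-18 receptor needs to signal, read 5.29, 6.53, 6.67 and 5.99 in metastasis and 4.06, 4.80, 4.55, 4.25 and 4.69 in healthy marrow. Metastasis replicate 1 was the lowest of its group for Il18rap, yet above all healthy arrays, and the difference was 1.65 ± 0.24 (adjusted p = 0.00628). Myd88, the adapter shared by these receptors and most Toll-like receptors, averaged 7.87 ± 0.05 in metastasis and 7.35 ± 0.11 in healthy marrow, a smaller difference of 0.52 ± 0.08 (adjusted p = 0.00697). Casp1 and Irak3, the members with the highest levels among the rest, differed by -0.02 and 0.04 and were not called.

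In the axis of interleukins 12, 23, 27 and 15, the called genes were all lower in metastasis, 3 of 13, with a list median of -0.03. Il12rb2, the interleukin-12 receptor chain that recruits STAT4, read 5.12, 5.20, 4.34 and 5.40 in metastasis and 6.40, 5.94, 6.17, 6.52 and 6.40 in healthy marrow. No array of one group reached the other, and metastasis replicate 3 was the lowest. Il12rb2 fell by 1.27 ± 0.19 on the log2 scale (adjusted p = 0.00598), 2.42-fold lower than in healthy marrow. Ebi3, the beta subunit of interleukin 27, read 7.74, 7.93, 7.73 and 7.83 in metastasis and 8.49, 8.34, 8.65, 8.57 and 8.49 in healthy marrow, a fall of 0.70 ± 0.08 (adjusted p = 0.00135). Il15, a growth factor of NK and memory T cells, read 6.53, 5.71, 6.0 and 6.45 in metastasis and 6.95, 6.74, 6.91, 7.27 and 7.08 in healthy marrow, a fall of 0.82 ± 0.16 (adjusted p = 0.0291). The groups stood apart for Ebi3 and Il15 as well, but Il15 lost its call in 6 of the 9 leave-one-out fits (adjusted p 0.0175 to 0.0958). Il27, the other subunit, differed by -0.13 and Il15ra by 0.35, and neither passed.

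Receptors for antibody and components of the complement system were also among the calls. Fcgr1, the high-affinity receptor for immunoglobulin G (CD64), read 8.92, 8.62, 8.54 and 8.79 in metastasis and 7.26, 7.33, 7.27, 7.29 and 7.12 in healthy marrow. The values were tight in both groups and far apart. Fcgr1 had the smallest adjusted p of all genes, 1.39e-05, with a difference of 1.46 ± 0.09, or 2.76-fold. Cfb, complement factor B of the alternative pathway, averaged 7.06 ± 0.41 in metastasis and 5.91 ± 0.16 in healthy marrow, a difference of 1.15 ± 0.16 (adjusted p = 0.00521). C5ar1, the receptor for the chemotactic fragment C5a, differed by 0.66 ± 0.12 (adjusted p = 0.0210). Fcgrt, the neonatal Fc receptor that recycles immunoglobulin G, was lower, by 0.48 ± 0.09 (adjusted p = 0.0206). Of the 19 genes on this list 4 were called higher and 1 lower, with a median of 0.13, and 9 had an unadjusted limma p under 0.05. Of all 210 called genes, 63.3% were higher. C5ar1 lost its call in 4 leave-one-out fits (adjusted p 0.0214 to 0.0604) and Fcgrt in 4 (0.0157 to 0.0644). Fcer1g, the signal chain that Fcgr1 pairs with, stood at 11.30 in metastasis and 11.30 in healthy marrow, and C3 at 11.01 and 11.17, and neither passed.

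Of 18 pattern receptors and their signal genes, 2 were called higher and 1 lower, and the median was 0.26, with 16 of the 18 differences positive. The unadjusted limma p was under 0.05 in 11 of the 18. Clec4e (Mincle), a C-type lectin for mycobacterial and damaged-cell ligands, read 8.73, 9.17, 9.42 and 8.68 in metastasis and 7.28, 8.19, 7.65, 7.80 and 7.60 in healthy marrow. These groups did not overlap and differed by 1.29 ± 0.18 (adjusted p = 0.00521). Tlr4, the receptor for lipopolysaccharide, averaged 6.75 ± 0.11 in metastasis and 6.20 ± 0.13 in healthy marrow, a difference of 0.54 ± 0.09 (adjusted p = 0.0104). Clec7a (dectin 1), the receptor for fungal beta-glucan, was lower by 0.56 ± 0.12 (adjusted p = 0.0400), a call lost in 7 leave-one-out fits (adjusted p 0.0300 to 0.118). Tarm1, an activating receptor of myeloid cells, read 8.01, 8.45, 9.17 and 8.29 in metastasis and 6.83, 7.37, 7.22, 6.93 and 6.74 in healthy marrow, with no overlap and a difference of 1.46 ± 0.20 (adjusted p = 0.00462). P2ry12, a receptor for ADP, averaged 6.26 ± 0.31 in metastasis and 5.04 ± 0.36 in healthy marrow (difference 1.22 ± 0.18, adjusted p = 0.00651), and Ms4a8a, a 4-span membrane protein of macrophages, 6.24 ± 0.15 and 4.99 ± 0.16 in the same order (difference 1.25 ± 0.10, adjusted p = 7.49e-05).

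Among lectins, Cd209a and Cd209d were called lower in metastasis. Cd209a, a mouse relative of DC-SIGN that marks monocyte-derived dendritic cells, had the largest fall of any called gene. It read 4.42, 4.57, 3.87 and 5.02 in metastasis and 7.07, 6.47, 6.42, 6.72 and 6.54 in healthy marrow. The highest metastasis value, 5.02 on replicate 4, lay more than 1 log2 unit below the lowest healthy value, 6.42. Cd209a fell by 2.17 ± 0.20 (adjusted p = 0.000172) and was 4.51-fold lower in metastasis. Cd209d, a gene of the same family, averaged 3.73 ± 0.09 in metastasis and 4.41 ± 0.33 in healthy marrow (adjusted p = 0.0403), and its call was lost in 7 leave-one-out fits (adjusted p 0.0271 to 0.139). Of 18 measured dendritic cell genes, Cd209a and Irf4 were called, both lower. The list's median was -0.18, and 12 of its 18 differences were negative, against 53.34% of all genes. In 7 of the 18 the unadjusted limma p was under 0.05. The list's median level ranged from 4.60 to 5.08 over the metastasis arrays and from 5.10 to 5.52 over the healthy arrays, without overlap. Flt3 and Zbtb46, which define conventional dendritic cells, averaged 5.83 ± 1.10 and 4.35 ± 0.09 in metastasis and 5.39 ± 0.36 and 4.46 ± 0.16 in healthy marrow, and neither passed. The part of dendritic cells in the sorts was not tested.

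The list of Ly6C-low monocyte genes gave 1 call. Cx3cr1, the fractalkine receptor, which is higher on patrolling than on classical monocytes, read 8.78, 8.52, 8.33 and 8.72 in metastasis and 9.95, 9.56, 9.40, 9.41 and 9.58 in healthy marrow. The groups stood apart, with the highest healthy value on replicate 1. Cx3cr1 fell by 0.99 ± 0.12 (adjusted p = 0.00232), 1.99-fold. Nr4a1, the transcription factor that Ly6C-low monocytes need, read 6.97, 6.93, 6.22 and 7.01 in metastasis and 7.99, 7.25, 6.93, 6.70 and 7.43 in healthy marrow, overlapped between groups and did not pass (difference -0.48 ± 0.23, adjusted p = 0.440). Spn (CD43) and Ace, also higher in Ly6C-low cells, differed by -0.30 ± 0.09 and -0.24 ± 0.38 (adjusted p = 0.158 and 0.854). Over the 18 genes of the Ly6C-low list the median was -0.17, 13 differences were negative and 7 genes had an unadjusted limma p under 0.05. The list's median level ranged from 6.10 to 6.45 over the metastasis arrays and from 6.26 to 6.56 over the healthy arrays, so these ranges overlapped. The part of Ly6C-low cells in the fall of Cx3cr1 was not tested.

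Adhesion genes moved both ways. F11r, the junctional adhesion molecule JAM-A, which leukocytes and endothelium carry, read 5.28, 5.69, 6.12 and 6.66 in metastasis and 3.51, 3.76, 3.54, 3.64 and 3.94 in healthy marrow. No metastasis array was below 5.28, and no healthy array was above 3.94. The difference was 2.26 ± 0.21 (adjusted p = 0.000201), or 4.79-fold. Jaml, a leukocyte ligand for the coxsackie and adenovirus receptor of epithelia, differed by 1.09 ± 0.20 (adjusted p = 0.0221), and Itga5, the fibronectin receptor's alpha chain, by 0.36 ± 0.07 (adjusted p = 0.0367). Itgb3, the beta 3 integrin that osteoclasts use to hold to bone, read 5.18, 5.16, 5.30 and 5.34 in metastasis and 6.53, 6.07, 6.34, 6.22 and 6.46 in healthy marrow. The metastasis values of Itgb3 lay within a narrow band below all healthy values, and the fall was 1.08 ± 0.10 (adjusted p = 0.000177), 2.11-fold. Of 24 adhesion genes 3 were called higher and 1 lower, with a median of -0.02. Jaml and Itga5 lost their calls in 4 and 8 leave-one-out fits (adjusted p 0.0227 to 0.0847 and 0.0482 to 0.0988). Selplg, the ligand of P-selectin, stood at 10.72 in metastasis and 10.80 in healthy marrow and was not called.

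Itgb3 is also a platelet gene and belongs to the lists of megakaryocyte and osteoclast genes. It was the only called gene of 13 in the megakaryocyte list, whose median level ranged from 3.93 to 4.08 over the metastasis arrays and from 3.87 to 4.39 over the healthy arrays. In the osteoclast list of 16 genes, Trem2, a lipid receptor that pairs with Tyrobp, was higher by 0.59 ± 0.12 (adjusted p = 0.0360; lost in 7 leave-one-out fits, 0.0314 to 0.0971), and the median was 0.02.

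Interferon-induced genes gave few calls. Cxcl9, an interferon-gamma-induced ligand of CXCR3, read 5.92, 6.48, 7.19 and 8.43 in metastasis and 5.57, 5.47, 4.81, 5.01 and 5.71 in healthy marrow. All metastasis values of Cxcl9 were above the healthy ones, but the spread within metastasis was wide and the difference of 1.69 ± 0.39 missed the threshold (adjusted p = 0.0664; 0.0316 to 0.196 in the 6 other settings, of which 2 passed, the 19-array fit among them). Gbp7, an interferon-induced GTPase, averaged 7.04 ± 0.19 in metastasis and 6.37 ± 0.20 in healthy marrow and was the only called gene of 22 in the interferon-gamma list (difference 0.67 ± 0.12, adjusted p = 0.0167, list median 0.11). Its call was lost in 2 leave-one-out fits (adjusted p 0.0130 to 0.0637) and in the 19-array fit (0.203; 0.00240 to 0.203 over the 6 other settings). Among the 26 type I interferon-stimulated genes, 0 were called at the adjusted threshold in limma and 7 had an unadjusted p under 0.05, with a median of 0.02. Metastasis replicate 3 had the lowest median level of that list, 5.64, against 6.14 to 6.42 on the other metastasis arrays and 5.96 to 6.23 on the healthy arrays. Ifitm3, a highly expressed one, stood at 11.29 in metastasis and 11.33 in healthy marrow. The receptor chains Ifngr1 and Ifngr2 differed by 0.12 and -0.07.

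Matrix genes gave 4 called members of 26, all higher, with a list median of -0.02. Mmp19, a metalloproteinase of matrix and basement membrane, averaged 7.10 ± 0.16 in metastasis and 6.40 ± 0.14 in healthy marrow (difference 0.70 ± 0.10, adjusted p = 0.00521). Mmp8, the collagenase of neutrophil granules, averaged 10.82 ± 0.32 and 10.06 ± 0.22 in the same order (adjusted p = 0.0296), Adam8, a membrane metalloproteinase, 4.75 ± 0.24 and 4.19 ± 0.16 (adjusted p = 0.0425), and Tgfbi, a matrix protein induced by TGF-beta, 11.12 ± 0.12 and 10.77 ± 0.04 (adjusted p = 0.0491). Mmp19 kept its call in every leave-one-out fit, while Mmp8 lost its call in 5 (adjusted p 0.0214 to 0.0830), Adam8 in 7 (0.0323 to 0.140) and Tgfbi in 8 (0.0470 to 0.140). Thbs1, thrombospondin 1, differed by 0.95 ± 0.37 and did not pass (adjusted p = 0.320). Flt1, a receptor for VEGF, stood at a low 4.59 ± 0.14 in metastasis and 4.79 ± 0.32 in healthy marrow (adjusted p = 0.644).

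Genes of triglyceride and fatty acid handling included a pair of large rises. Dgat2, which makes triglyceride in its last step, read 5.76, 6.51, 7.08 and 6.22 in metastasis and 4.14, 5.08, 5.12, 4.28 and 4.33 in healthy marrow, a difference of 1.80 ± 0.26 (adjusted p = 0.00594), or 3.49-fold. Fabp7, a fatty acid-binding protein best known in brain, read 6.27, 6.93, 7.41 and 6.08 in metastasis and 4.64, 5.62, 4.92, 5.05 and 4.98 in healthy marrow, a difference of 1.63 ± 0.25 (adjusted p = 0.00789). Neither gene overlapped between groups, and metastasis replicate 3 was the highest array for both. Pnpla2, the lipase that starts triglyceride breakdown, differed by 0.37 ± 0.08 (adjusted p = 0.0442), a call lost in 8 leave-one-out fits (adjusted p 0.0407 to 0.135). These were the 3 called genes of 24, and the list's median was -0.02. Plin2, the lipid droplet coat protein, stood at 8.38 in metastasis and 8.30 in healthy marrow and was not called. None of 20 cholesterol genes was called, although 19 of the differences were positive (median 0.15, 1 gene at an unadjusted p under 0.05). Alox5, the 5-lipoxygenase that starts leukotriene synthesis, read 5.49, 4.66, 5.80 and 5.05 in metastasis and 5.84, 6.0, 6.20, 6.12 and 6.06 in healthy marrow, and its difference of -0.79 ± 0.18 missed the threshold (adjusted p = 0.0664); it passed in 4 of the 6 other settings, the 19-array fit among them (0.0210 to 0.0662 over the 6). Dpep2, a membrane dipeptidase that trims leukotriene D4, read 7.48, 8.22, 9.16 and 7.68 in metastasis and 5.90, 6.94, 6.47, 6.03 and 6.28 in healthy marrow, a difference of 1.81 ± 0.30 (adjusted p = 0.0109). With the intensity trend and robust prior Dpep2 did not pass (0.0691; 0.00598 to 0.0691 over the 6 other settings).

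The remaining large rises were spread over enzymes, kinases and regulators of mRNA. Gcnt2, a glycosyltransferase that branches glycan chains, averaged 6.07 ± 0.27 in metastasis and 4.54 ± 0.22 in healthy marrow (difference 1.53 ± 0.14, adjusted p = 0.000172). Camk2d, a calcium and calmodulin-dependent kinase subunit, read 7.62, 7.61, 7.69 and 7.52 in metastasis and 5.91, 6.55, 5.79, 6.20 and 6.03 in healthy marrow, with the metastasis arrays in a narrow band (difference 1.51 ± 0.13, adjusted p = 0.000130). Ier3, an immediate early gene, averaged 6.69 ± 0.17 in metastasis and 5.34 ± 0.30 in healthy marrow (difference 1.35 ± 0.14, adjusted p = 0.000520). Zfp36l1, a protein that leads AU-rich mRNAs to decay, averaged 7.99 ± 0.76 and 6.57 ± 0.34 in the same order (adjusted p = 0.0367), and Ly6a, the Sca-1 antigen, 6.93 ± 0.57 and 5.69 ± 0.28 (adjusted p = 0.0194). The calls of Zfp36l1 and Ly6a were lost in 6 and 3 leave-one-out fits (adjusted p 0.0136 to 0.117 and 0.00698 to 0.0775). Zfp36, the founding gene of the Zfp36l1 family, stood at 10.59 in metastasis and 10.23 in healthy marrow (adjusted p = 0.0687; 0.00240 to 0.0980 in the 6 other settings, of which 3 passed).

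The remaining large falls included genes of cell shape, transport and enzymes. Mtss1, a protein that bends membranes and binds actin, read 5.67, 5.39, 5.44 and 5.63 in metastasis and 6.69, 6.07, 6.71, 6.46 and 6.94 in healthy marrow, a fall of 1.04 ± 0.15 (adjusted p = 0.00521). Cgnl1, a junction protein related to cingulin, averaged 5.23 ± 0.35 in metastasis and 6.26 ± 0.24 in healthy marrow, a fall of 1.03 ± 0.16 (adjusted p = 0.00811). Padi2, an enzyme that turns arginine in proteins to citrulline, read 7.45, 6.89, 6.66 and 7.47 in metastasis and 8.20, 8.21, 8.15, 7.95 and 8.06 in healthy marrow, a fall of 0.99 ± 0.15 (adjusted p = 0.00795). These 3 genes kept their calls in every leave-one-out fit. Rnase6, a ribonuclease of monocytes, fell by 0.71 ± 0.11 (adjusted p = 0.00957), Aplnr, the apelin receptor, by 0.69 ± 0.11 (adjusted p = 0.0114), and Arl5c, a small GTPase, by 0.68 ± 0.10 (adjusted p = 0.00650). Slc46a3, a lysosomal transporter, fell by 0.93 ± 0.17 (adjusted p = 0.0238), Slc7a8, an amino acid transporter, by 0.76 ± 0.13 (adjusted p = 0.0188), and Samd9l, an interferon-induced growth regulator, by 0.70 ± 0.13 (adjusted p = 0.0225). Foxq1, a forkhead transcription factor, fell by 0.68 ± 0.12 (adjusted p = 0.0140), and Art2a-ps, which RefSeq lists as a transcribed pseudogene, by 0.74 ± 0.16 (adjusted p = 0.0425). Between 1 and 7 of the leave-one-out fits lost the calls of Slc46a3, Slc7a8, Samd9l, Foxq1 and Art2a-ps, with a highest adjusted p from 0.0567 for Foxq1 to 0.144 for Art2a-ps. Rnase6 missed the threshold in the 19-array fit (0.0727; 0.00121 to 0.0727 over the 6 other settings).

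Genes for energy use, cell division and antigen presentation gave few calls. None of 30 cell cycle genes was called (median 0.09, 3 genes at an unadjusted p under 0.05), and Mki67 stood at 10.25 ± 0.07 in metastasis and 10.20 ± 0.04 in healthy marrow. Of 26 genes of the respiratory chain and ATP synthase 0 passed limma's adjusted threshold (median 0.07, 4 genes at an unadjusted p under 0.05), and 23 of the differences were positive. The glycolysis and hypoxia list gave 1 call of 21, Slc2a1 (GLUT1), which carries glucose into cells, at 8.22 ± 0.14 in metastasis and 7.75 ± 0.12 in healthy marrow (adjusted p = 0.0291; lost in 6 leave-one-out fits, 0.0318 to 0.100). Gclm, a subunit of the enzyme that starts glutathione synthesis, was the only called gene of 18 in the oxidant defence list, with 7.0 ± 0.15 in metastasis and 6.30 ± 0.17 in healthy marrow (adjusted p = 0.00628; 0.0694 in the 19-array fit and 0.000790 to 0.0694 over the 6 other settings). The lysosomal list of 22 held 1 call each way, Ctsl, a cathepsin, higher by 0.63 ± 0.12 (adjusted p = 0.0213), and Lipa, the acid lipase, lower by 0.47 ± 0.09 (adjusted p = 0.0271). Ctsl lost its call in 2 leave-one-out fits and Lipa in 6 (adjusted p 0.0212 to 0.0667 and 0.0219 to 0.100). Ltb, lymphotoxin beta, was the only call of 19 in the TNF and NF-kappaB list, lower by 0.54 ± 0.10 (adjusted p = 0.0190; lost in 2 fits, 0.0181 to 0.0647). None of the 17 immune suppression genes, 20 endoplasmic reticulum genes, 11 MHC class II genes and 13 MHC class I genes was called, with 5, 0, 2 and 0 of them at an unadjusted p under 0.05.

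Across the 43 lists, 47 of 727 measured members were called (6.46%), against 1.00% of all genes; the lists were chosen with earlier results of these data known, so this share supports nothing by itself.

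**Figure D3:**
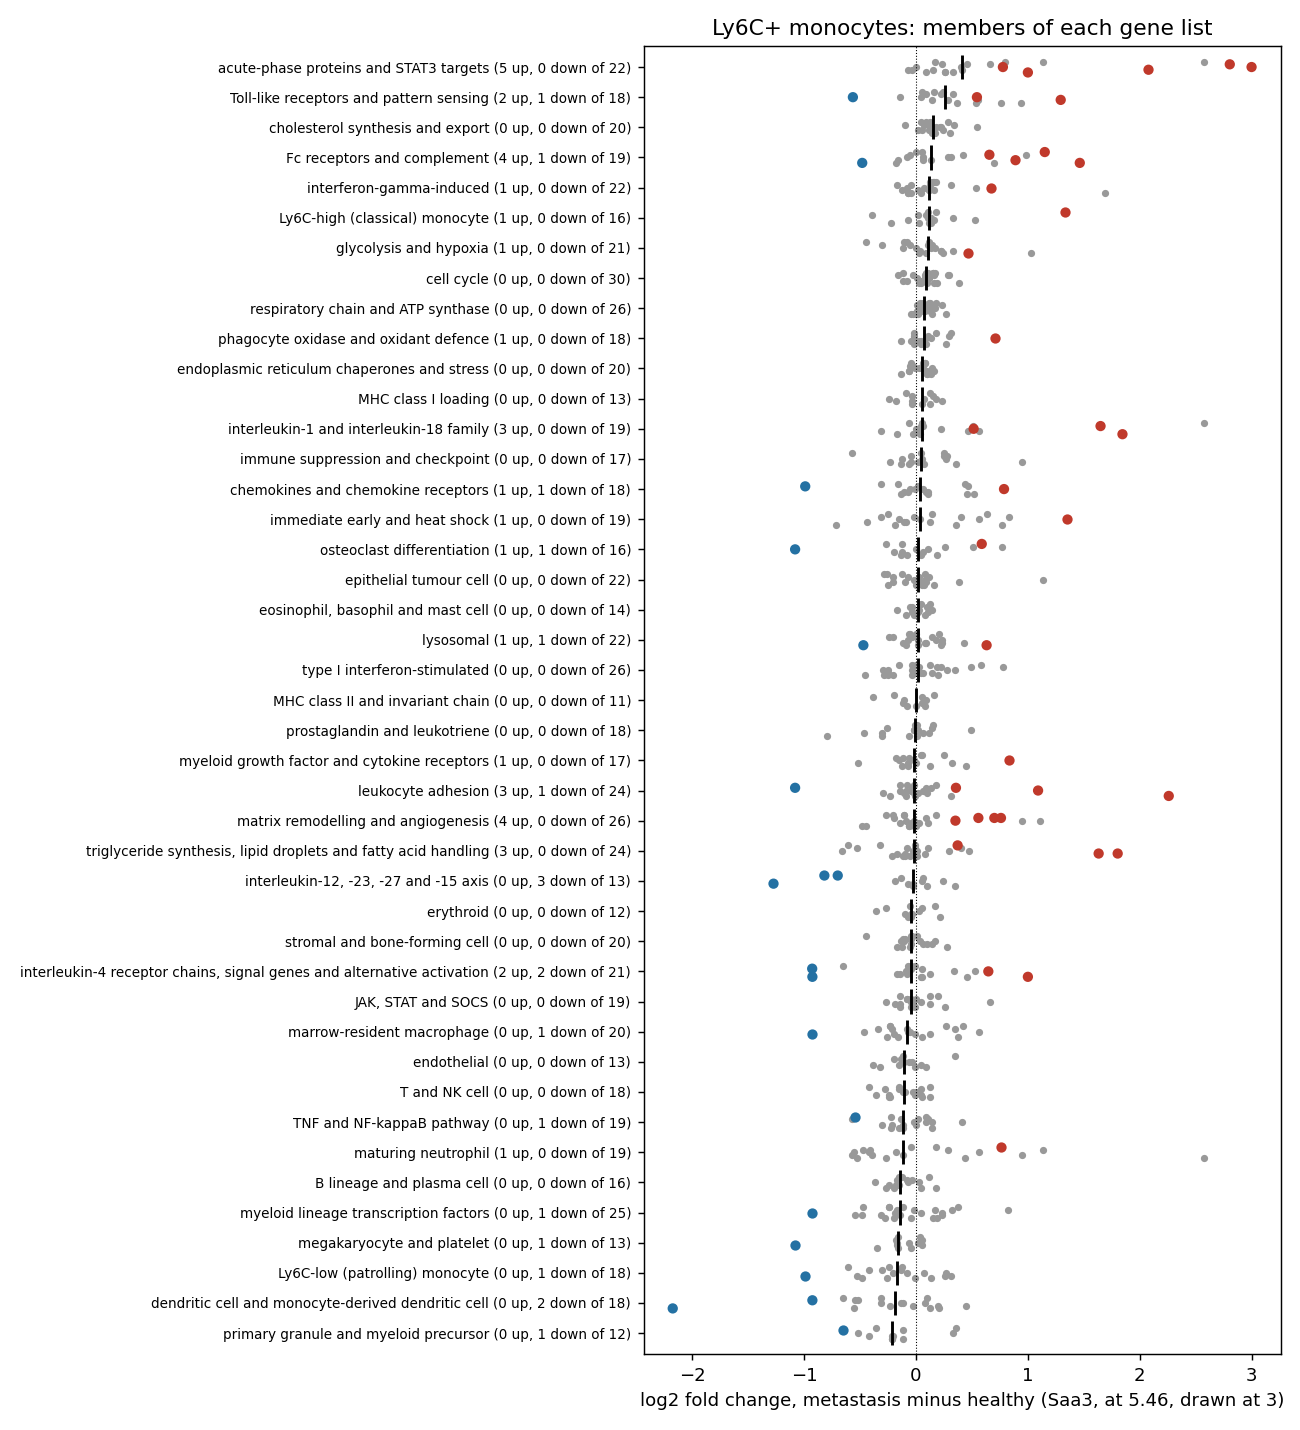
Each row is 1 gene list and each point 1 of its members, placed by the log2 fold change, metastasis minus healthy, with red for called higher, blue for called lower and grey for not called; the black bar is the list's median, and Saa3, at 5.46, is drawn at the edge of the axis. The acute-phase and STAT3 list has the highest median, 0.41, and the list of primary granule and precursor genes the lowest, -0.21. All lists were chosen with earlier results of these data known.

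Markers of other cells that might have come through the sort were also read. Transcripts of the maturing neutrophil list were read in both groups, and which cells carried them was not tested. S100a9 averaged 10.48 ± 0.22 in metastasis and 10.53 ± 0.22 in healthy marrow, and Camp 7.97 ± 0.40 and 8.54 ± 0.76 in the same order. Ngp averaged 8.27 ± 0.25 and 8.69 ± 0.47, and Ltf 6.88 ± 0.26 and 7.40 ± 0.62. None of these 4 was called, and of 19 measured genes of maturing neutrophils Mmp8 alone was (8 at an unadjusted p under 0.05), with a list median of -0.11. The median level of that list ranged from 6.70 to 7.42 over the metastasis arrays and from 6.62 to 7.38 over the healthy arrays. Il1r2, Lcn2 and Mmp8 belong to it as well as to the lists above, and the part of neutrophils in their values was not tested. Among 12 genes of primary granules and myeloid precursors, Cd34, a stem and progenitor antigen, was lower by 0.65 ± 0.12 (adjusted p = 0.0224; lost in 5 leave-one-out fits, 0.0256 to 0.0672), and Mpo, the myeloperoxidase of those granules, stood at 10.27 in metastasis and 10.49 in healthy marrow. Of these 12 genes 10 had a negative difference, against 53.34% of all genes. An unadjusted limma p under 0.05 was found in 9 of the 12, against 2555 of all 20998 genes, and the list median was -0.21. The list's median level ranged from 7.55 to 7.91 over the metastasis arrays and from 7.71 to 8.0 over the healthy arrays, and the part of precursor cells in the sorts was not tested.

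Of the transcripts listed for epithelial tumour cells, Epcam, Krt8 and Krt18 averaged below the array medians, while others did not. Epcam, the epithelial adhesion molecule, averaged 3.18 ± 0.13 in metastasis and 3.11 ± 0.14 in healthy marrow, Krt8 3.94 ± 0.25 and 3.85 ± 0.17 in the same order, and Krt18 4.42 ± 0.16 and 4.41 ± 0.25. Krt7, another keratin of the list, averaged 4.89 ± 0.36 in metastasis and 4.99 ± 0.38 in healthy marrow, above the array medians. Lcn2, also on this list, averaged 9.30 and 8.16 in the same order. None of 22 epithelial genes was called (6 at an unadjusted p under 0.05), and their median level ranged from 3.56 to 3.68 over the metastasis arrays and from 3.46 to 3.71 over the healthy arrays. Mrc1 was the only called gene of 20 in the list of marrow macrophages, where 8 had an unadjusted p under 0.05 and 13 a negative difference (list median -0.08). The median level of that list ranged from 4.42 to 4.74 over the metastasis arrays and from 4.53 to 4.80 over the healthy arrays. No gene was called among 16 B lineage, 18 T and NK cell, 12 erythroid, 14 eosinophil and basophil, 20 stromal and 13 endothelial genes, where 0 to 3 genes of a list had an unadjusted p under 0.05. Cd79b, of the B lineage list, averaged 6.71 ± 0.12 in metastasis and 7.08 ± 0.12 in healthy marrow, without overlap (limma adjusted p = 0.0756). It passed in 2 of the 6 other settings (0.0305 to 0.750). Nkg7, of the T and NK and the precursor lists, averaged 6.86 ± 0.30 and 7.27 ± 0.12 in the same order (adjusted p = 0.165). Of the B lineage differences 12 were negative and 4 positive, and of the T and NK differences 12 and 6.

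The arrays did not contribute equally to the calls. Metastasis replicate 3 had the highest metastasis value in 72 of the 133 higher genes and the lowest in 37 of the 77 lower genes. Healthy replicate 2 had the highest healthy value in 60 of the 133 higher genes. Leaving out metastasis replicate 2, healthy replicate 1, healthy replicate 3 or healthy replicate 5 moved the total by more than 1.5 times, to 108, 110, 129 and 138 calls. In the 19-array fit, Ly6a, Irf4, Slc46a3, Art2a-ps, Cd209d, Mmp8, Cd34, Itga5, Trem2, Adam8, Tgfbi, Pnpla2, Clec7a, Fcgrt, Ctsl and Lipa also lost their calls, with adjusted p from 0.0511 for Ly6a to 0.798 for Cd34. With the intensity trend and robust prior, Zfp36l1 and Jaml did (0.135 and 0.0586).

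**Figure D4:**
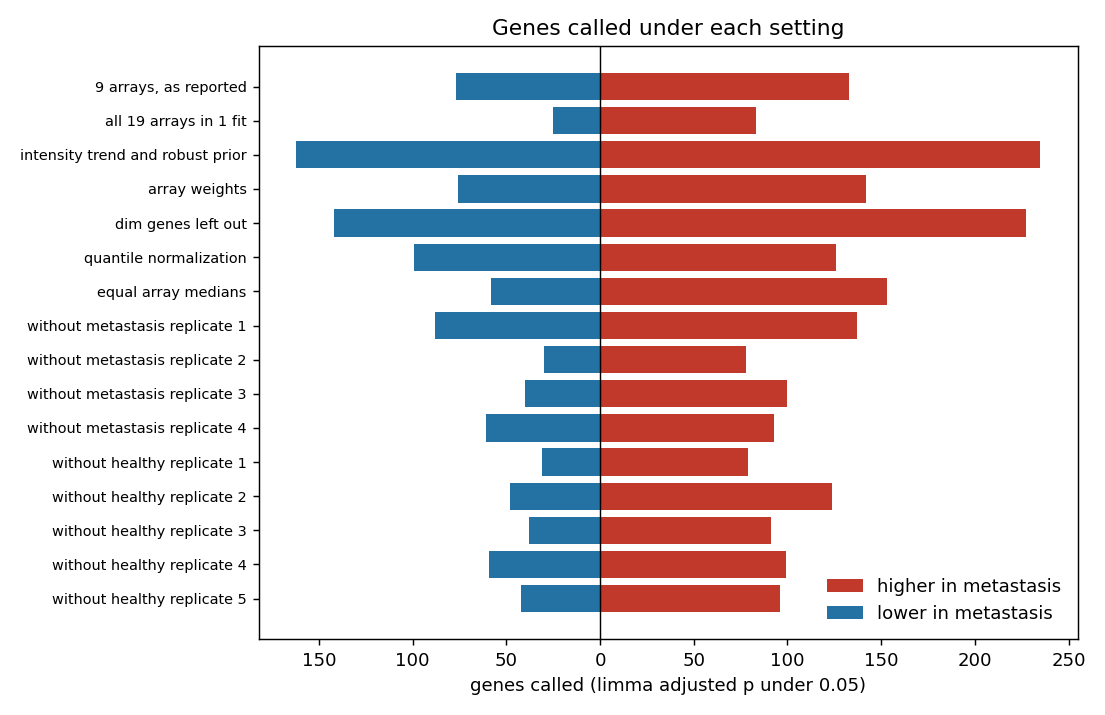
Bars give the number of genes called at an adjusted p under 0.05 in each setting, with genes higher in metastasis to the right in red and genes lower in metastasis to the left in blue. The fit of the 9 arrays gives 133 and 77; higher calls outnumber lower calls in every setting drawn.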

How the data were processed

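Monocyte RNA was measured on 9 arrays, 4 from bone metastasis and 5 from healthy marrow. Per the labels, total RNA of the sorted cells was labelled with biotin, and the submitters' processing notes name the R package oligo. How it corrected background, normalized and summarized probe sets to genes, and its version, is not given in the sources used here. Values on a log2 scale were deposited for 20998 gene symbols and entered the fit unchanged; 20573 are current RefSeq symbols and 350 synonyms. Genome positions refer to GRCm38.p6, the build of the RefSeq promoter table.

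Group means of the 9 arrays were fitted with limma 3.58.1 in R 4.3.3 (lmFit, eBayes, no trend). Benjamini-Hochberg adjustment covered all 20998 genes, and a call is an adjusted p under 0.05. The difference is metastasis minus healthy. The method was tested on simulated data. Alternatives were a fit of all 19 arrays, an intensity trend with a robust prior, array weights and a filter on dim genes. Quantile normalization, equal array medians and each array left out in turn were also run. The filter kept genes whose higher group mean was above 4.46, so it depends on the groups.

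The gene lists (765 entries, 38 of them not used here) and members were chosen with earlier results of these data known. Genes were named by a rule: among called genes without overlap, the 20 that rose most and the 20 that fell most, from each list up to 5 called members and up to 2 others with high levels, and a set of monocyte and acute-phase genes. Predicted transcripts, small RNAs, olfactory receptors and antigen receptor segments were counted, not named (12 calls). Some genes were named after their values were seen: Il1r2, Lcn2, Bcl3, Thbs1, Csf2rb, Saa1, Saa2, further cell markers, and the genes under the other observations. A few genes that the rule names are not reported here, though the counts of their lists include them.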

Additional observations from a re-analysis of the deposited data

Results flagged for a closer look

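Single arrays stood far from the others of their group in some of the named genes, by Dixon's criterion on the gap to the nearest array over the group's range. Values are log2 expression. Metastasis replicate 1 was low for Il4ra at 8.17, Cfb at 6.45, Plscr1 at 5.17 and Bhlhe40 at 5.82. Metastasis replicate 2 was high for Arid5a at 6.32, and low for Foxq1 at 3.53, Cyp27a1 at 7.69 and Mboat1 at 7.57. Metastasis replicate 3 was high for Mmp8 at 11.31, Acta2 at 7.18, Mmp19 at 7.34, C5ar1 at 7.11, Ctsl at 8.51, F10 at 9.68 and Zbtb46 at 4.49, and low for Ifitm3 at 11.14 and Nr4a1 at 6.22. Metastasis replicate 4 was high for H2-K1 at 9.51. Healthy replicate 1 was high for Cyp27a1 at 8.63, and low for Pecam1 at 6.04, Ndufa4 at 10.50 and Il1r2 at 3.40. Healthy replicate 2 was high for Ier3 at 5.85 and Btg2 at 9.11, and low for Il27 at 6.51 and Cebpe at 6.62. Healthy replicate 3 was high for S100a8 at 7.58 and Spn at 9.13. Healthy replicate 4 was high for Ms4a8a at 5.27, and low for Gpi1 at 10.47. Healthy replicate 5 was high for Gpx1 at 12.10. In all, 31 of 454 groups checked (6.83%, 2 groups for each of 227 genes) stood out in this way, and chance gives about 1 in 20. Metastasis replicate 3 is the array most often named here.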

How the results depend on the processing

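No named gene that was called changed direction under the alternatives run. The median difference over all genes did, from -0.0109 to 0.0113 with dim genes left out and 0.0067 with equal array medians. Gene differences and list medians of that size therefore have no settled direction. The 210 calls became 108 in the fit of all 19 arrays (93 of them among the 210), 397 with an intensity trend and robust prior (204 among the 210) and 369 with dim genes left out (201 among the 210, 10693 genes tested); the higher calls were 83, 235 and 227 in these settings against 133, and the lower calls 25, 162 and 142 against 77. Leaving out 1 array at a time gave 108 to 225 calls, 78 to 137 higher and 30 to 88 lower, and 30 to 50 called list members against 47. Array weights gave 218 calls, quantile normalization 225 and equal array medians 211. The share of higher calls was 63.3%, against 56.0% (126 higher, 99 lower) after quantile normalization and 72.5% (153 higher, 58 lower) with equal array medians, and 76.9% in the fit of all 19 arrays. Causes were not tested, except that fewer arrays or other arrays enter some fits by construction. No paired analysis was possible because the labels give the groups no shared replicate numbers. Metastasis replicate 2 and healthy replicates 1, 3 and 5 each moved the total by more than 1.5 times. Unadjusted p was under 0.05 in 2555 genes. Dim genes close to 2.83, the highest Y-linked value, have little signal over background; 2 called genes have a group mean below it.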

Other observations

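The genes in these paragraphs were picked from the called genes after their values were seen. Among further receptors of myeloid cells, Clec5a, which signals through DAP12, was higher in metastasis by 0.56 ± 0.09 on the log2 scale (limma, SE, adjusted p = 0.00837), with no overlap of the arrays, and P2ry13, an ADP receptor related to P2ry12, by 1.10 ± 0.15 (adjusted p = 0.00400). Lbp, the protein that carries lipopolysaccharide to CD14 and Tlr4, read 8.73, 8.87, 9.08 and 8.84 on the metastasis arrays and 7.86, 8.10, 7.78, 7.94 and 7.84 on the healthy arrays, a difference of 0.98 ± 0.09 (adjusted p = 0.000201). F10, coagulation factor X, averaged 9.53 ± 0.10 in metastasis and 9.05 ± 0.08 in healthy marrow (adjusted p = 0.0102), and C1rl, a protease related to complement C1r, 8.05 ± 0.38 and 7.13 ± 0.13 in the same order (adjusted p = 0.00957). Sbno2, a transcriptional cofactor that interleukin 10 and STAT3 induce, averaged 7.86 ± 0.05 in metastasis and 7.18 ± 0.09 in healthy marrow (adjusted p = 0.000723). P2ry13, Lbp, F10, C1rl and Sbno2 kept their calls in the 9 leave-one-out fits and the 6 other settings; Clec5a was not called in the 19-array fit (adjusted p = 0.388; 0.000463 to 0.388 over the 6 other settings).

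Slfn4 and genes of membrane lipids were also among the calls. Slfn4, a schlafen of myeloid cells, differed by 0.82 ± 0.12 (adjusted p = 0.00697), with 7.02 in metastasis and 6.20 in healthy marrow. Atp11a, a flippase that keeps phosphatidylserine on the inner leaflet, averaged 8.75 ± 0.09 in metastasis and 7.57 ± 0.28 in healthy marrow (adjusted p = 0.000643). Soat2, which esterifies cholesterol, differed by 0.96 ± 0.13 (adjusted p = 0.00362). Selp, the P-selectin gene, averaged 5.36 ± 0.37 in metastasis and 4.26 ± 0.27 in healthy marrow (adjusted p = 0.00834), and Sema6b, a semaphorin, 6.24 ± 0.20 and 5.17 ± 0.15 in the same order (adjusted p = 0.000336). Slfn4, Atp11a, Soat2, Selp and Sema6b kept their calls in the same fits.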
